A study of Mus musculus with 6 samples.

Results

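The aryl hydrocarbon receptor (AHR), its dimer partner, its feedback repressors and a group of its target enzymes were followed in activated lung group 2 innate lymphoid cells (aILC2s) given melatonin or vehicle. The 8 transcripts were taken by name as genes of one pathway: Ahr, Arnt, Ahrr, Tiparp, Cyp1a1, Cyp1b1, Aldh3a1 and Lpcat4, all of them among the 16381 genes listed for these samples. All 8 passed the filter on low values. With melatonin, the transcripts of the receptor, of its partner Arnt and of the repressor Tiparp were higher. Those of the repressor Ahrr, of the detoxifying enzymes Cyp1a1 and Cyp1b1 and of the lipid enzyme Lpcat4 were lower, and Aldh3a1 did not pass the test.

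The cells came from lungs of WT BALB/c mice that had received intranasal recombinant IL-33 at 0.5 µg a day for 3 days, and both groups shared that challenge. Sorted aILC2s were then cultured for 24 h with 250 µM melatonin, or with DMSO, the vehicle, and RNA was sequenced from 3 samples in each group. The labels give no age or sex, and the study's methods describe female mice aged 6 to 8 weeks. The strain is known to be deficient in making melatonin of its own. Nothing in the labels ties a sample to a mouse or a culture, so the p-values below measure the spread between these samples, which may be technical. The libraries are numbered 20 to 22 for melatonin and 32 to 34 for vehicle. What the numbers stand for is not given, and any difference tied to them cannot be told apart from the treatment.

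AHR is a transcription factor that waits in the cytosol in a complex with heat shock protein 90 and its co-chaperones. Dioxins, plant indoles and tryptophan metabolites such as kynurenine bind it, after which it enters the nucleus, pairs with ARNT and binds DNA at the dioxin response element, whose core letters are GCGTG. Induction of Cyp1a1 is its best known readout. AHRR competes with AHR for ARNT, and TIPARP marks AHR with ADP-ribose, so both damp the signal that induces them. In lymphocytes AHR is known for its part in interleukin-22 production by group 3 innate lymphoid cells and for its presence in gut ILC2s.

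The 250 bases before the start site are shown for the feedback repressors and for both cytochrome genes, because these genes are the textbook targets of the receptor and moved in opposite directions here. The sequences are from RefSeq on build GRCm38.p6, written 5′ to 3′ on the gene's strand, and capitals mark GCGTG or its reverse complement CACGC. A promoter entry was matched for 6 of the 8 genes.
Ahrr (chr13:74292332-74292581, minus strand): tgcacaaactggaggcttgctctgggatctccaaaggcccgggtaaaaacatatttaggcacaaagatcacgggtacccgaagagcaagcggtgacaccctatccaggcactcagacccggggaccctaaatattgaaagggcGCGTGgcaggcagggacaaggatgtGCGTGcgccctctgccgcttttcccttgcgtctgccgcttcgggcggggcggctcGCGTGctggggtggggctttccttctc
Tiparp (chr3:65528197-65528446, plus strand): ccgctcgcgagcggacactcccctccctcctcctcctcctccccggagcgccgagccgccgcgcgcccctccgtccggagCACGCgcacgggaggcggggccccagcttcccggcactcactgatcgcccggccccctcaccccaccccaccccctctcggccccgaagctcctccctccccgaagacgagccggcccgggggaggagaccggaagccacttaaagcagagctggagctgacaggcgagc
Cyp1a1 (chr9:57697363-57697612, plus strand): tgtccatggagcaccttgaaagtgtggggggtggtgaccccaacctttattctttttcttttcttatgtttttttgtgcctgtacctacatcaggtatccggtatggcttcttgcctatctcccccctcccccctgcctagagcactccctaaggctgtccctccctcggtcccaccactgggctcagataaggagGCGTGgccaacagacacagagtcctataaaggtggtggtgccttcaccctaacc
Cyp1b1 (chr17:79715062-79715311, minus strand): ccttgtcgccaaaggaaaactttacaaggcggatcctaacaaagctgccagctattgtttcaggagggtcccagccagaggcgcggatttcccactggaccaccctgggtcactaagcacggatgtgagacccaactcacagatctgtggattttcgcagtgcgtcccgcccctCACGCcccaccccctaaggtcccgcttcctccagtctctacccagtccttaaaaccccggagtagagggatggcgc

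Each of the 6 matched windows, which run from 250 bases before to 50 bases after the start, held GCGTG on at least 1 strand, as did 32.4% of 32851 mouse promoter windows of that length. Ahrr held 3 copies, at 107 to 103, 82 to 78 and 27 to 23 bases before the start. The copy nearest the start also completed the longer element TNGCGTG, which contains the core and which 5.07% of all windows held. Tiparp held 1 copy on the reverse strand at 170 to 166 bases before the start, and Lpcat4 held 1 at the same distance and on the same strand. Cyp1a1 held 1 at 54 to 50 bases, Cyp1b1 1 at 76 to 72 bases on the reverse strand, and Arnt 1 at 29 to 25 bases. Genes that rose and genes that fell thus both held the core. A match of letters is a description and not a measured binding site.

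Library totals, estimated from the normalised values, lay between 17056267 and 20511700 counts, and the limit set by 3 counts was 2.80 to 3.28 normalised counts. The value in all text below is the authors' normalised count unless a scale is named. All 13 ILC2 markers checked were listed, and their sum ranged from 218888 to 232893 with vehicle and from 151901 to 169797 with melatonin, with 8 of 13 called lower and 2 higher. Among all tested genes 24.7% were called lower and 24.5% higher by the test described below, and the marker counts in this paragraph are to be read beside those shares. Most of the fall in the ILC2 sum came from Il5, with means of 83072 and 49950.1, and Il2ra, with means of 51596 and 31066, while Il1rl1 and Rora were called higher. Gata3, the master regulator of these cells, was at 19000 to 19606 with vehicle and 17890 to 24588 with melatonin, while the surface markers Thy1 and Klrg1 were 7.37-fold and 4.47-fold lower. The summed markers of ILC3 and ILC1 cells ranged from 568 to 587 with vehicle and from 57.9 to 68.4 with melatonin, with 5 of 7 tested markers lower. Of these, Ncr1, Tbx21, Ifng and Il17a passed the filter on low values (10 in at least 1 sample) through vehicle samples alone. They could thus enter the test only through values that were high with vehicle, and that count is largely set by the filter. Summed macrophage markers ranged from 3832 to 4753 with vehicle and from 416 to 2425 with melatonin, with 3 of 6 tested markers lower. Of these, Adgre1 passed the same filter through vehicle samples alone. The epithelial sum was 964 to 2412 with vehicle and 1061 to 1261 with melatonin, with 5 of 7 tested markers lower and 1, Epcam, higher. Of the lower markers, Scgb1a1, Sftpc, Sftpa1 and Krt8 also passed the filter through vehicle samples alone, and only Krt18 reached it in both groups. Epcam was at 623 to 745 with vehicle and 1016 to 1230 with melatonin and made up nearly all of the melatonin sum, whereas the defining transcript Scgb1a1 was at 95.2, 21.5 and 1045 with vehicle and at 0, 0 and 1.01 with melatonin. Markers of endothelium, of T cells and of B cells also had lower sums with melatonin, while the fibroblast sum overlapped and 5 of its 6 markers were not listed. The part of these differences in the results below was not tested. In RNA from whole samples, fewer cells of a type and less RNA per cell cannot be told apart. The study's methods describe a sort before culture that kept leukocytes positive for ST2 and CD127. It removed cells with lineage markers of T cells, B cells and myeloid cells, and cells with CD335, the product of Ncr1.

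The samples also differed in transcripts of the sex chromosomes. The Y-linked Ddx3y was at 861, 907 and 746 with vehicle and at 1071 in melatonin replicate 1, but at 0 in melatonin replicates 2 and 3. Xist, made from the inactive X chromosome, was at 579 and 1091 in those last replicates and at no more than 13.6 in the other 4 samples. All 3 vehicle samples and melatonin replicate 1 thus carry transcripts that female mice lack, and this difference and the treatment cannot be fully told apart. Results below are therefore also given for melatonin replicate 1 alone against vehicle wherever the call or the direction of a gene chosen by the naming rule differs. Such a fit takes its spread from the vehicle samples alone and assumes that the lone melatonin sample varies like them, so it is given for its value and no call rests on it.

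Across all 14419 tested genes, limma called 3529 higher with melatonin, which is 24.5%, and 3565 lower, which is 24.7%, at an adjusted p under 0.05. Of the 8 AHR pathway genes, 3 were called higher and 4 lower. The same 7 genes had groups that did not overlap, against a background of 30.0% of tested genes lying wholly higher and 30.3% wholly lower. With 3 samples against 3, the exact two-sided permutation test cannot give less than 0.1, and each of these 7 genes was at that limit. The 8 genes had a median log2 fold change of -0.59, beside -0.00 for the whole set of tested genes. That median is set by Lpcat4 (-0.72) and Aldh3a1 (-0.47), the middle genes of the 8. Aldh3a1 was at -0.0120 without melatonin replicate 2 and at 0.51 with melatonin replicate 1 alone, so the median moves with the samples kept.

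**Figure D1:**
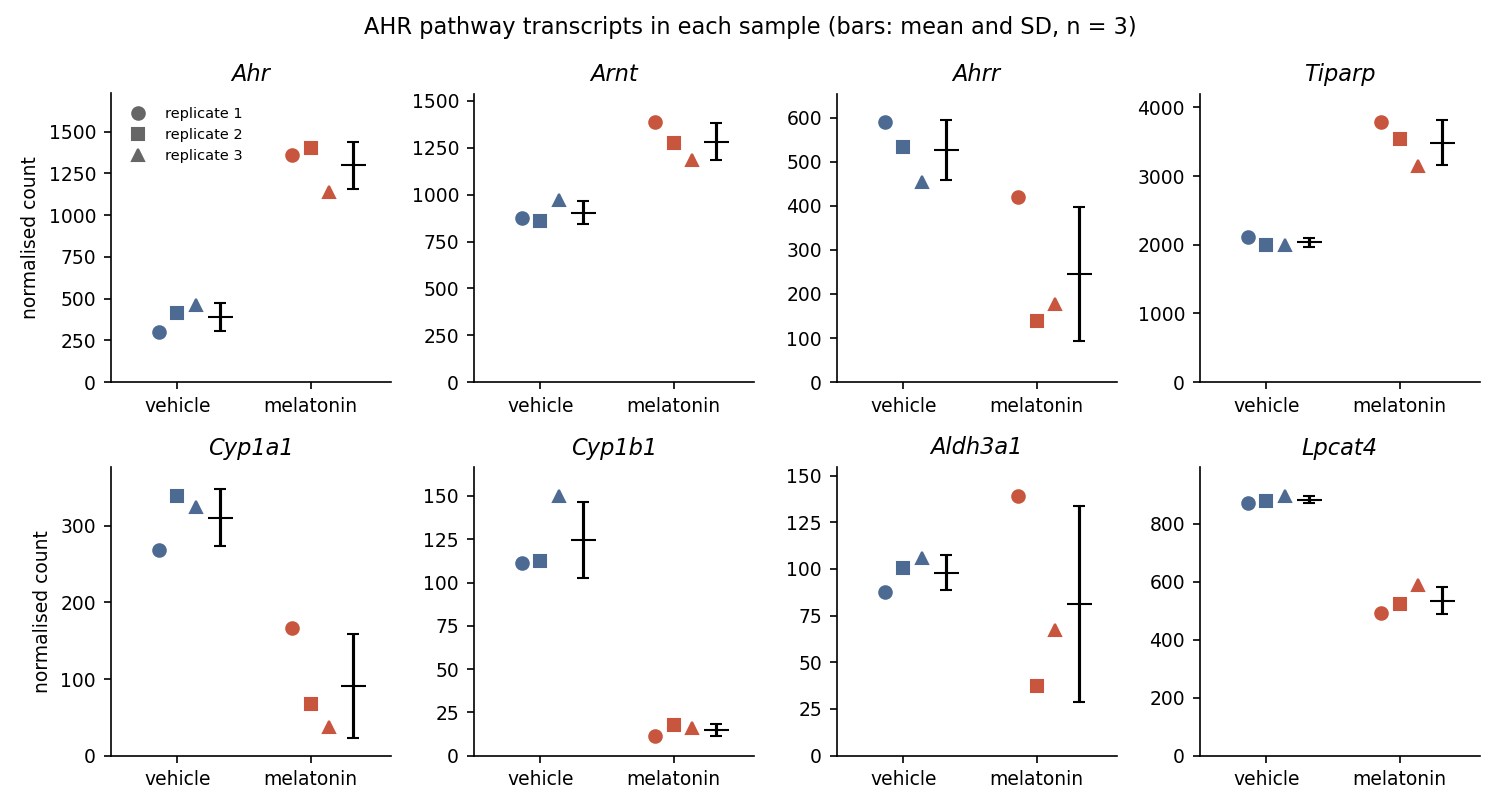
Normalised counts of the 8 transcripts in each of the 6 samples, on linear axes that start at 0, with symbols for replicates 1 to 3 and bars for the mean and SD of 3 samples. Ahr, Arnt and Tiparp sat higher in every melatonin sample, Ahrr, Cyp1a1, Cyp1b1 and Lpcat4 sat lower, and Aldh3a1 overlapped because melatonin replicate 1 was above all vehicle samples.

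Ahr itself showed the largest rise of the 8. Ahr (ENSMUSG00000019256) lies on the minus strand of chromosome 12, from 35547973 to 35585057 on GRCm39. Its normalised counts were 299.6, 416 and 463 in the vehicle samples and 1358, 1400 and 1139 in the melatonin samples. Every melatonin sample held far more Ahr than the highest vehicle sample, and the melatonin samples lay close together. The mean rose from 393 ± 84.0 to 1299 ± 140.0 (SD, n = 3 each), a log2 fold change of 1.74 with a standard error of 0.16 and a 95% interval of 1.37 to 2.11. That is 3.34-fold on the scale of log2(normalised count + 1) used for every fold change here, with a limma adjusted p of 0.000107. The antisense non-coding gene Gm48236 shares 127 exonic bases with Ahr, and the library kit does not mark strand, so reads from it there would be counted with Ahr.

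Arnt, the partner that AHR shares with the hypoxia factors, rose less. Arnt (ENSMUSG00000015522) lies on the plus strand of chromosome 3, from 95341365 to 95404551. It was at 876, 861 and 973 with vehicle and at 1386, 1274 and 1187 with melatonin. The groups were apart, with the lowest melatonin sample above the highest vehicle sample. It rose by 0.50 on the log2 scale (SE 0.09, 95% interval 0.29 to 0.72), or 1.42-fold, with a limma adjusted p of 0.00264. Within each sample, Ahr per kilobase of its longest transcript relative to Arnt per kilobase was 0.292, 0.413 and 0.406 with vehicle and 0.837, 0.939 and 0.820 with melatonin. The ratio of receptor to partner transcript was thus 2.34-fold higher with melatonin, a measure that a single scaling factor per sample cannot move.

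The repressors parted. Tiparp, which encodes a mono-ADP-ribosyltransferase also called PARP7, rose in all melatonin samples. Tiparp (ENSMUSG00000034640) lies on the plus strand of chromosome 3, from 65435320 to 65463365. It was at 2113, 1990 and 1999.7 with vehicle and at 3781, 3538 and 3139 with melatonin. The vehicle samples lay within a narrow band and no melatonin sample came near it. Tiparp rose by 0.77 on the log2 scale (SE 0.09, 95% interval 0.58 to 0.97), or 1.71-fold, with a limma adjusted p of 0.000251. The non-coding genes Gm38503 and Gm34924 share 1600 and 169 exonic bases with Tiparp on the opposite strand, so the same holds for them.

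Ahrr, the receptor-like repressor that lacks a transactivating function, fell. Ahrr (ENSMUSG00000021575) lies on the minus strand of chromosome 13, from 74359237 to 74440462. It was at 589, 534 and 454 with vehicle and at 420.2, 138 and 178 with melatonin. Melatonin replicate 1 lay just under the lowest vehicle sample, while replicates 2 and 3 were far below both. The log2 fold change was -1.26 (SE 0.35, 95% interval -2.05 to -0.47), or 2.40-fold lower, with a limma adjusted p of 0.0158. This call was lost without vehicle replicate 2 (-1.25, adjusted p 0.0509), without melatonin replicate 2 (-0.93, adjusted p 0.0525), without melatonin replicate 3 (-1.12, adjusted p 0.0503) and without the mean-variance trend of limma (adjusted p 0.0590). It was -1.73 without melatonin replicate 1 and -0.31 with melatonin replicate 1 alone.

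**Figure D2:**
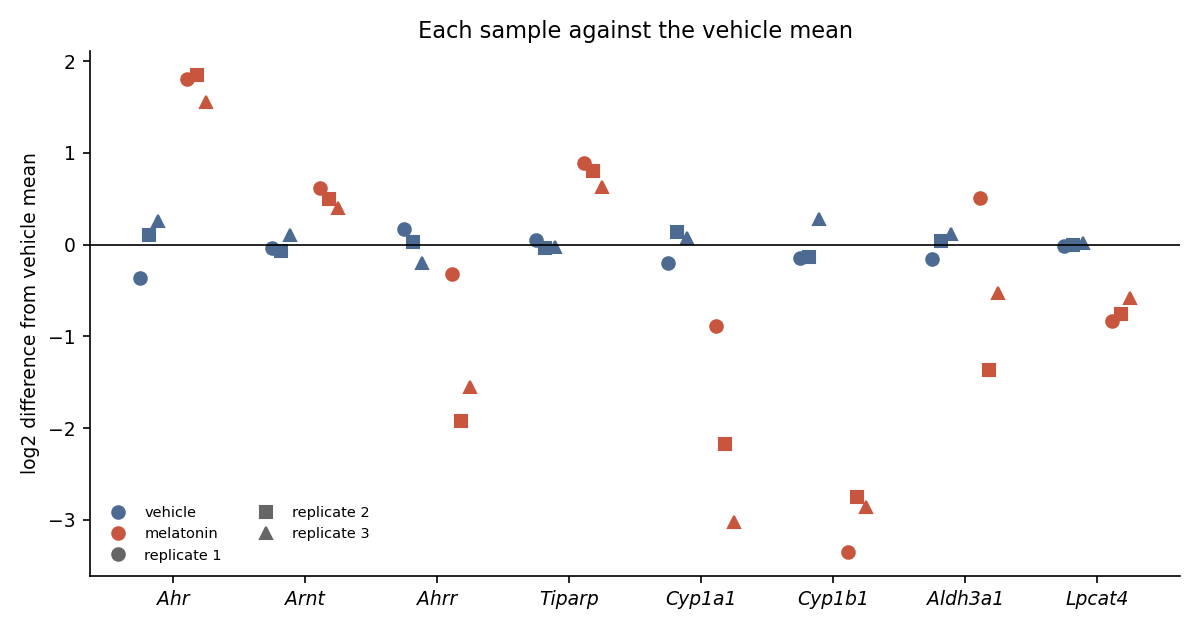
Log2 difference of each of the 6 samples from the vehicle mean, for each of the 8 transcripts, with color for the group and symbol for the replicate. Melatonin replicate 1 lay nearer to vehicle than replicates 2 and 3 for Ahrr (-0.31) and Cyp1a1 (-0.88) and above it for Aldh3a1 (0.51), but not for Cyp1b1 (-3.35).

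The cytochrome P450 enzymes of family 1, which oxidise polycyclic hydrocarbons and are induced by activated AHR, gave the largest falls of the 8 genes. Cyp1a1 (ENSMUSG00000032315) lies on the plus strand of chromosome 9, from 57595211 to 57611107. It was at 269, 339 and 324 with vehicle and at 167, 67.7 and 37.2 with melatonin. All melatonin samples were below all vehicle samples, and replicate 1 again kept the most. The log2 fold change was -2.03 (SE 0.44, 95% interval -3.03 to -1.02), or 4.07-fold lower, with a limma adjusted p of 0.00555. It was -2.60 without melatonin replicate 1 and -0.88 with melatonin replicate 1 alone.

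Cyp1b1 (ENSMUSG00000024087), the family member that also hydroxylates oestrogens, lies on the minus strand of chromosome 17, from 80008966 to 80022532. It was at 111, 112 and 150.04 with vehicle and at 11.2, 17.5 and 16.1 with melatonin. Here melatonin replicate 1 was the lowest sample, and the gap between groups was wider than either group's range. For Cyp1b1 the log2 fold change was -2.99 (SE 0.27, 95% interval -3.59 to -2.38), or 7.93-fold lower, with a limma adjusted p of 8.7e-05. The melatonin levels stood above the limit of 3 counts in every sample. Cyp1a2, their close relative, was not among the listed genes.

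Aldh3a1, a dehydrogenase that clears aldehydes and that AHR ligands induce in liver cells, was not called. Aldh3a1 (ENSMUSG00000019102) lies on the plus strand of chromosome 11, from 61098363 to 61109247. It was at 87.7, 100.3 and 106 with vehicle and at 139, 37.1 and 67.4 with melatonin. Melatonin replicate 1 was the highest of all 6 samples and replicates 2 and 3 were the lowest, so the groups overlapped. The log2 fold change was -0.47 (SE 0.40, 95% interval -1.38 to 0.45), with a limma adjusted p of 0.364 and an exact permutation p of 0.6. Without melatonin replicate 1 it was -0.95 and called (adjusted p 0.0196), and with sample weights it was -0.89 and called (adjusted p 0.0324). With melatonin replicate 1 alone it was 0.51.

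Melatonin replicate 1 exceeded the mean of replicates 2 and 3 by 2.66-fold for Ahrr, 3.19-fold for Cyp1a1 and 2.66-fold for Aldh3a1. It did so by 1.5-fold or more for 3 of these 8 genes and for 8.59% of all tested genes. The remaining 5 lay between 0.668 times that mean, for Cyp1b1, and 1.13 times, for Tiparp and Arnt. Melatonin replicate 1 is also the melatonin sample with Y-linked transcripts, and the part of that difference in these values was not tested.

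Lpcat4, which encodes an acyltransferase that rebuilds membrane phospholipids from lysophospholipids, fell. Lpcat4 (ENSMUSG00000027134) lies on the plus strand of chromosome 2, from 112069676 to 112079641. It was at 874, 879 and 897 with vehicle and at 494, 524 and 588 with melatonin. The vehicle samples were within a few percent of each other and every melatonin sample was well below them. For Lpcat4 the log2 fold change was -0.72 (SE 0.10, 95% interval -0.94 to -0.50), or 1.65-fold lower, with a limma adjusted p of 0.000513. The antisense gene Nutm1 shares 1276 exonic bases with Lpcat4, but its mean over the samples was only 1.91 normalised counts.

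**Figure D3:**
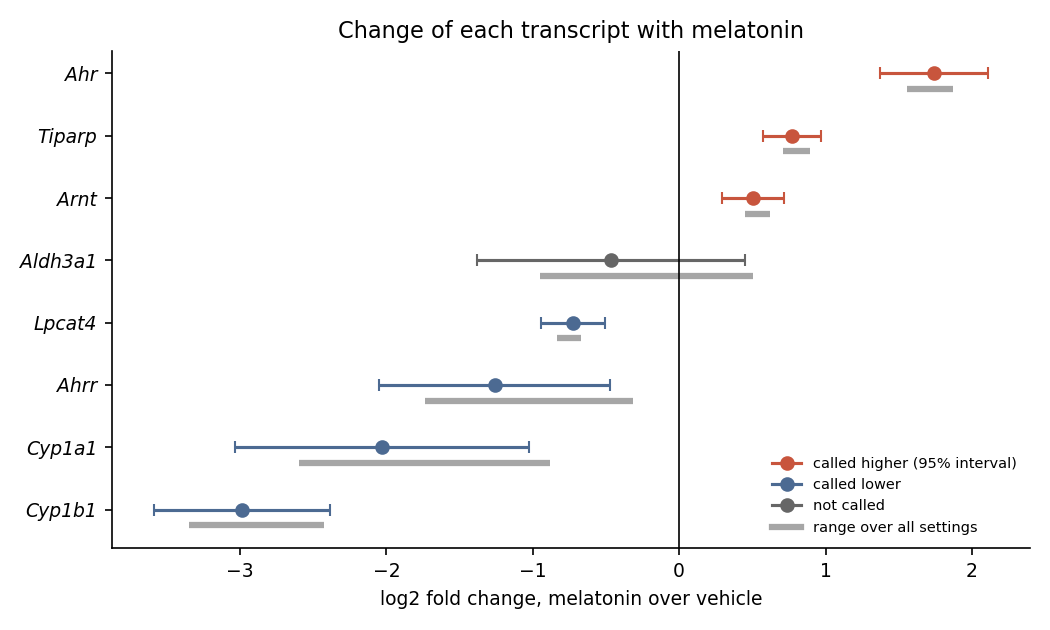
Log2 fold change of melatonin over vehicle for the 8 transcripts, with points and bars for the limma estimate and its 95% interval and grey bands for the range over all settings tried. Ahr was highest at 1.74, Cyp1b1 lowest at -2.99, and the interval and the band of Aldh3a1 alone spanned 0.

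Levels of different genes were set side by side only per kilobase of the longest annotated transcript. With vehicle, Tiparp (283) and Lpcat4 (280.3) were the highest and their ranges overlapped. Arnt followed at 190 (range 181 to 204), apart from its neighbours. Ahrr (103), Cyp1a1 (92.1), Ahr (70.5) and Aldh3a1 (54.4) formed a chain in which each overlapped the next in range, and Cyp1b1 was lowest at 23.99. With melatonin the order was Tiparp at 485, Arnt at 269.6, Ahr at 233, Lpcat4 at 169.9, Ahrr at 48.1, Aldh3a1 at 45.1, Cyp1a1 at 26.9 and Cyp1b1 at 2.88. Ahr moved up in the order to the place behind Arnt, where its range of 205 to 251 touched that partner's (249.6 to 291). Ahrr, Aldh3a1 and Cyp1a1 overlapped each other. Dividing by the total exonic length instead put Lpcat4 (196) above Tiparp (178) with vehicle and Ahr (210.1) above Arnt (137) with melatonin. It also put Ahrr (55.6) below Cyp1a1 (79.6) and Ahr (63.5) with vehicle, and Aldh3a1 (34.4) above Ahrr (25.9) with melatonin.

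**Figure D4:**
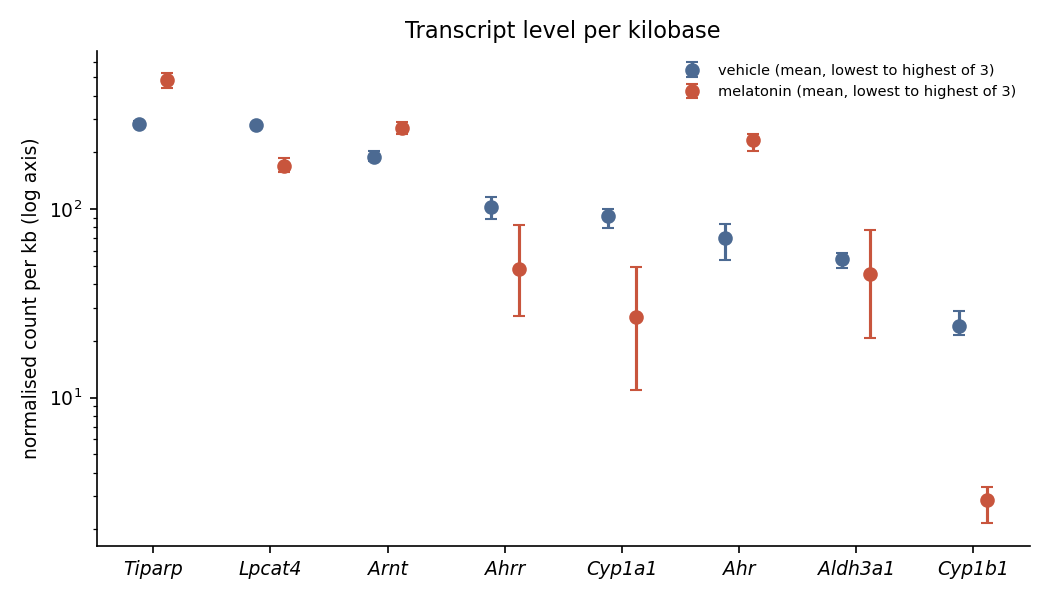
Normalised counts per kilobase of the longest transcript on a log axis, with points for the mean and bars from the lowest to the highest of 3 samples per group. Ahr rose from 70.5 to 233 and passed Lpcat4, while Cyp1b1 fell from 23.99 to 2.88 and stayed lowest.

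Relative to the receptor transcript in the same sample, every one of the enzymes and repressors was lower with melatonin. Cyp1a1 per Ahr, both per kilobase, was 1.48, 1.35 and 1.16 with vehicle and 0.203, 0.0798 and 0.0539 with melatonin, an 11.8-fold lower mean. Cyp1b1 per Ahr was 0.398, 0.290 and 0.348 with vehicle and 0.00885, 0.0134 and 0.0152 with melatonin, 27.7-fold lower. The receptor-relative level of Cyp1a1 thus fell in all 3 melatonin samples far under the lowest vehicle value. Aldh3a1 per Ahr was 0.905, 0.745 and 0.708 with vehicle and 0.317, 0.0821 and 0.183 with melatonin, so the groups were apart in the ratio, with the rise of Ahr in it, but not in the Aldh3a1 level. Tiparp per Ahr was also lower, at 2.08 ± 0.11 against 4.17 ± 1.13 (SD, n = 3 each), since Ahr rose more than Tiparp. Cyp1a1 per Tiparp, a pair of receptor targets, was 0.271, 0.363 and 0.345 with vehicle and 0.0941, 0.0408 and 0.0252 with melatonin, 6.11-fold lower. Melatonin replicate 1 held the highest of the 3 melatonin values in both Cyp1a1 ratios, so both falls would be larger without it. The ratios were chosen after the levels were seen, and most hold Ahr, which was already known to be higher, so they describe the samples and are no further test.

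Of 4 genes followed from the cytosolic complex that holds AHR, 3 were called lower and 0 higher by limma, where 24.7% and 24.5% of all tested genes were, with a median log2 fold change of -0.54. Hsp90aa1, the inducible heat shock protein 90, was at 14223, 12985 and 13027 with vehicle and 5101, 7104 and 8796 with melatonin, a log2 fold change of -0.97 (adjusted p 0.00184). Hsp90ab1, the constitutive form, fell by 0.32 on the log2 scale (adjusted p 0.0155), and that call was lost without vehicle replicate 1 (adjusted p 0.0676), 2 (0.0509) or 3 (0.0613) and with quantile normalization (0.0598). Src, the kinase found in the complex, had a log2 fold change of -0.76 (adjusted p 0.0156) that was lost without vehicle replicate 3 (-0.69, adjusted p 0.0595), and that was -0.34 with melatonin replicate 1 alone. Ptges3, the p23 co-chaperone, was at -0.15 and not called (adjusted p 0.166), and at -0.28 with melatonin replicate 1 alone.

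Among genes of AHR turnover, Stub1, a ubiquitin ligase that works on chaperone clients, rose from 3583, 3674 and 3369 to 6771, 6432 and 6072, a log2 fold change of 0.86 (limma adjusted p 8.7e-05). Of the cullin 4B ligase that can assemble around AHR, Tbl3 fell by 0.66 (adjusted p 0.000372) and Ddb1 by 0.44 (adjusted p 0.00265). Rbx1 fell by 0.32 (adjusted p 0.0169), a call lost without vehicle replicate 1 (adjusted p 0.0655) or 2 (adjusted p 0.0726) and without the trend (adjusted p 0.0523). Cul4b itself was at -0.03 (adjusted p 0.847) and its sign changed when samples were scaled to the same total (0.00916), without vehicle replicate 2 (0.0436) and with melatonin replicate 1 alone (0.0651). In all, 3 of 5 were lower and 1 higher, beside 24.7% and 24.5% of all tested genes.

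AHR and ARNT belong to the bHLH-PAS family, whose members also sense oxygen and run the circadian clock. Of 10 tested relatives, 3 were higher and 4 lower, beside 24.5% and 24.7% of all tested genes, with a median of -0.39. That median moved between -0.68 when all listed genes were kept and 0.50 when only genes whose mean reached 100 were kept. It was -0.59 without melatonin replicate 1, -0.19 without melatonin replicate 2 and -0.00838 with melatonin replicate 1 alone. The largest rises were those of Npas2 and Bmal1, activators of the clock. Npas2 went from 70.0, 94.6 and 72.4 to 462, 349.6 and 319.7 (log2 fold change 2.24, limma adjusted p 7.3e-05), and Bmal1 from 577, 632 and 500.5 to 1869, 1503 and 1461 (1.495, adjusted p 7.1e-05). Clock, the usual partner of BMAL1, was at 320, 289 and 298 with vehicle and 271, 238 and 259 with melatonin and was not called (-0.24, adjusted p 0.123), nor was Bmal2 (-0.55, adjusted p 0.253). Hif1a, the oxygen-regulated partner of ARNT, rose by 0.78 on the log2 scale (adjusted p 0.000244), from 10796 to 11650 with vehicle to 17218 to 20188 with melatonin. Arnt2, the close relative of Arnt, went the other way, from 385, 311 and 296 to 96.2, 78.7 and 119.6 (-1.75, adjusted p 0.000204). The clock repressors Per1 (-1.07), Per2 (-2.93) and Per3 (-1.57) completed the genes called lower. The Per genes, Clock and Bmal2 were outside the rule for named genes and were named after their values were seen.

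Of 13 tested nuclear cofactors, 3 were higher (23.1%), 2 lower (15.4%) and 8 not called, beside 24.5% and 24.7% of all tested genes, and their median was 0.15. That median was 0.079 with quantile normalization, 0.215 without melatonin replicate 2 and 0.242 with melatonin replicate 1 alone. Ncoa1, a histone acetyltransferase coactivator, was at 315, 287 and 455 with vehicle and 939, 1069 and 557 with melatonin (log2 fold change 1.25, limma adjusted p 0.00369). Nrip1, a corepressor, rose by 0.40 (adjusted p 0.00214). Smarca4, a chromatin remodeller, fell by 0.33 (adjusted p 0.0110), and was at -0.21 with melatonin replicate 1 alone. Sp1, a zinc finger factor that binds GC boxes, had a log2 fold change of -0.61 (adjusted p 0.0277), but among the fits that left out 1 sample it was called only without melatonin replicate 3, with adjusted p of 0.0663 to 0.0956 without any of the other 5. It was also not called without the trend (adjusted p 0.0736). The remaining gene called higher was Rb1 (0.56, adjusted p 0.0435), outside the rule because its groups overlapped and named after its values were seen.

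**Figure D5:**
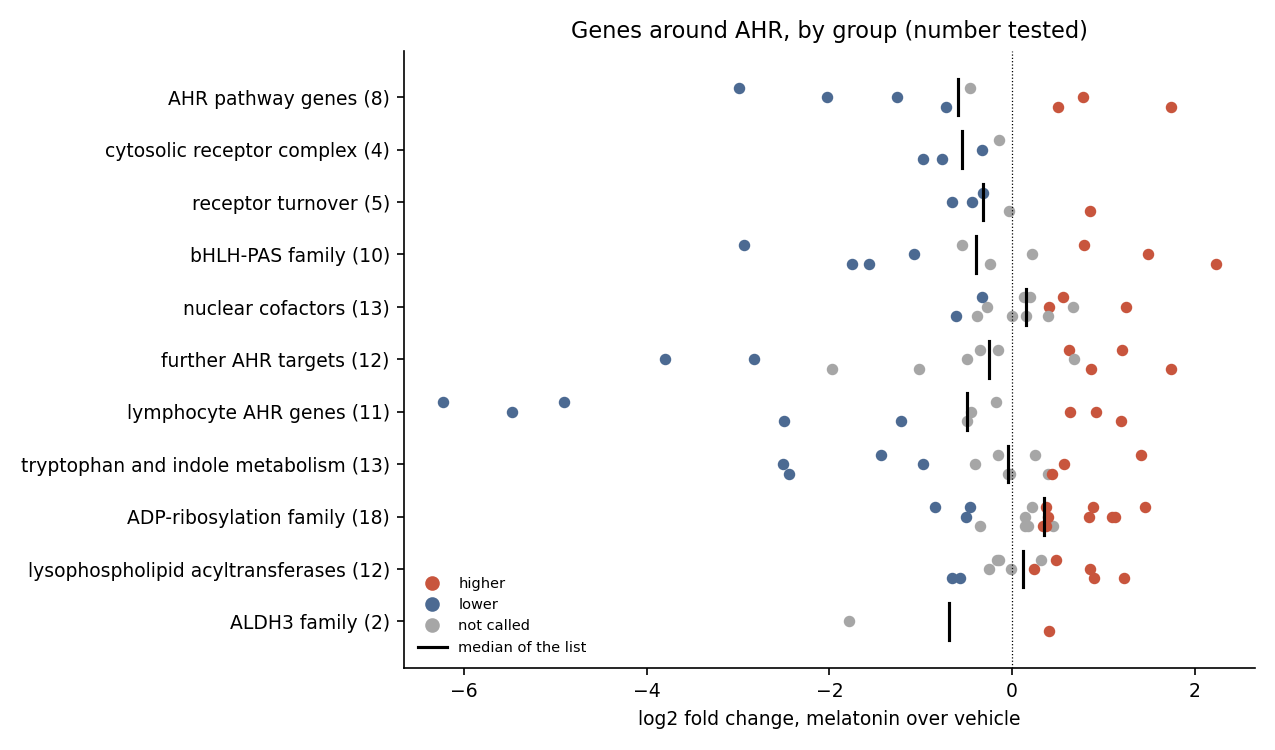
Log2 fold change of melatonin over vehicle for each tested gene of the AHR pathway and of 10 related groups, colored by the limma call, with black bars for group medians and the number of tested genes in parentheses. Every group apart from the small cytosolic and ALDH3 groups held genes called in both directions, and among all tested genes 24.5% were called higher and 24.7% lower.

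Of 12 tested genes that AHR drives in other cell types, 4 were called higher (33.3%), 2 lower (16.7%) and 6 neither, beside 24.5% and 24.7% of all tested genes. Their median was -0.25, and became 0.75 when only genes whose mean reached 100 were kept and 0.32 with quantile normalization. It was -0.02 without vehicle replicate 3, -0.38 without melatonin replicate 1, 0.02 without melatonin replicate 2 and 0.25 with melatonin replicate 1 alone. Nqo1, the quinone reductase that both AHR and the antioxidant factor NRF2 induce, rose from 2073, 2358 and 2381 to 9650, 6514 and 6864, a log2 fold change of 1.74 (limma adjusted p 6.4e-05), close in size to that of Ahr. Nfe2l2, which encodes NRF2, rose by 1.21 on the log2 scale (adjusted p 0.000155), and Socs2, an inhibitor of cytokine signalling, by 0.86 (adjusted p 7.7e-05). Cdkn1b, the cell cycle inhibitor p27, rose by 0.63 (adjusted p 0.0160) and was named after its values were seen. Both genes called lower had low counts and all melatonin samples under 3 counts: Ugt1a6a was at least 4.71-fold lower and Gsta1 at least 2.24-fold lower, against a limit of 3 counts per library. Gsta1 was at 7.35, 2.81 and 10.3 with vehicle, so it passed the filter on low values through vehicle replicate 3 alone. Ugt1a6a was at 18.3, 17.8 and 6.72 with vehicle and passed it through vehicle replicates 1 and 2 alone. Both genes called lower could thus be tested only because they were higher with vehicle. Ugt1a6a and Gsta1 too were named after their values were seen, and Ugt1a6a shares exons with its gene family, so its reads may be split. Slc7a5, the amino acid transporter that takes up kynurenine, was at 13245, 14664 and 14818 with vehicle and 10657, 14507 and 13581 with melatonin and was not called (-0.15, adjusted p 0.311), with a value of -0.42 for melatonin replicate 1 alone. Ugt1a6b and Ereg were not listed.

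Among 11 tested genes tied to AHR in lymphocytes, 5 were lower and 3 higher (27.3%), beside 24.7% and 24.5% of all tested genes, with a median of -0.49. That median moved with the setting and was -1.21 without vehicle replicate 3, -0.93 without melatonin replicate 1, -0.33 without vehicle replicate 2, -1.33 with sample weights, -1.23 with a pseudocount of 0.1 and -0.18 when only genes whose mean reached 100 were kept. Il22 was at 265, 305 and 284 with vehicle and at 0, 2.19 and 16.1 with melatonin, a log2 fold change of -6.23 (limma adjusted p 0.000509). Melatonin replicates 1 and 2 lay under the limit of 3 counts, so this fitted value depends on the pseudocount, and it ranged from -8.15 to -4.32 over all alternatives, with -7.32 without melatonin replicate 3 and -5.27 without melatonin replicate 1. Il10 was at 928, 908 and 772 with vehicle and at 8.40, 40.4 and 61.3 with melatonin, a log2 fold change of -4.90 (adjusted p 0.000284), with -5.46 without melatonin replicate 3, -4.09 without melatonin replicate 1 and -6.53 with melatonin replicate 1 alone. In both cytokines all melatonin samples were far under all vehicle samples, beside the lower ILC3 and ILC1 marker sum, in which Il22 is itself counted. Entpd1 and Nt5e, the ectoenzymes CD39 and CD73 that turn ATP into adenosine in sequence, went opposite ways. Entpd1 was at 169.9, 119.0 and 144 with vehicle and 82.2, 50.3 and 54.3 with melatonin (-1.22, adjusted p 0.00327). Nt5e was at 187, 204 and 205 with vehicle and 562, 460.0 and 366 with melatonin (1.20, adjusted p 0.000547).

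Kit and Il1rl1 were highest in melatonin replicate 1. Kit, the stem cell factor receptor, was at 1674, 1765 and 1629 with vehicle and 5935, 2593 and 2129 with melatonin (log2 fold change 0.92, limma adjusted p 0.0360). It was 0.48 and called without melatonin replicate 1, and the call was lost without vehicle replicate 1 (0.92, adjusted p 0.0755), 2 (0.95, adjusted p 0.0801) or 3 (0.90, adjusted p 0.0922), or without the trend (adjusted p 0.105). Il1rl1, the IL-33 receptor ST2 by which the cells were sorted, was at 7698, 8735 and 7793 with vehicle and 16787, 11120 and 10498 with melatonin (0.63, adjusted p 0.0113), and 0.42 without melatonin replicate 1. The genes called lower also held Gpr15, a homing receptor, at least 21.0-fold lower against the limit of 3 counts, and Il17a. Gpr15 was at 70.0, 63.2 and 57.7 with vehicle and at 0, 0 and 2.01 with melatonin. It thus passed the filter on low values through vehicle samples alone and could enter the count of lower genes only in that way. Il17a was at 2.80, 10.3 and 3.15 with vehicle and at 0 in every melatonin sample. It passed the filter on low values through vehicle replicate 2 alone, and the other vehicle samples lay at the limit. Its call and its bound of 1.79-fold thus rest on that sample. Gpr15 and Il17a were named after their values were seen.

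Ligand supply was described by enzymes and carriers of tryptophan and its indoles. Of 13 tested genes of 22 looked for, 3 were higher (23.1%) and 4 lower (30.8%), beside 24.5% and 24.7% of all tested genes. Their median was -0.04, between -0.12 without vehicle replicate 3 or melatonin replicate 3 and 0.03 without vehicle replicate 2, and -0.33 with melatonin replicate 1 alone. Aanat and Asmt, the enzymes that make melatonin from serotonin, were not listed. Haao, an enzyme of the kynurenine route, fell from 259, 252 and 253 to 92.4, 81.9 and 108.6, a log2 fold change of -1.43 (limma adjusted p 0.000208). Slc3a2, the heavy chain that pairs with SLC7A5, rose by 0.56 on the log2 scale (adjusted p 0.000518). Tph1, the first enzyme of serotonin synthesis and a gene that activated ILC2s are known to express, was at 2608, 2951 and 2989 with vehicle and 4850, 3588 and 3314 with melatonin (0.44, adjusted p 0.0254). Its rise was 0.28 and called without melatonin replicate 1, and not called without vehicle replicate 1 (0.38, adjusted p 0.0859), 2 (0.47, adjusted p 0.0592) or 3 (0.48, adjusted p 0.0509), or with a replicate block (adjusted p 0.0519) or without the trend (adjusted p 0.0793). The other calls were Maob (1.41), Maoa (-0.97), Ddc (-2.51) and Ido1, all below a mean of 100 and named after their values were seen. Ido1 was at 11.2, 7.50 and 5.25 with vehicle and at 0, 0 and 3.02 with melatonin. It passed the filter on low values through vehicle replicate 1 alone. Its melatonin samples lay at or under the limit of 3 counts, so its fitted value of -2.44 depends on the pseudocount.

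Of 18 tested relatives of Tiparp that add or remove ADP-ribose, 9 were higher and 3 lower, beside 24.5% and 24.7% of all tested genes, with a median of 0.35 and no test of the group. Tnks2, a tankyrase, rose from 899.8, 1315 and 1750.1 to 4466, 3737 and 2592 (log2 fold change 1.46, limma adjusted p 0.00174). Macrod2, a hydrolase that takes off mono-ADP-ribose, rose from 257, 224 and 208 to 433, 565 and 509 (adjusted p 0.000366). Parp12, a mono-ADP-ribosyltransferase close to TIPARP, was at 174, 293 and 319 with vehicle and 841, 499 and 380.0 with melatonin (1.10, adjusted p 0.0167), a call lost without vehicle replicate 1 (0.82, adjusted p 0.0509) or without the trend (adjusted p 0.0601). Parp1, the DNA damage sensor, fell by 0.51 (adjusted p 0.00230). Parp14 had a log2 fold change of -0.46 (adjusted p 0.0409) and was called on leaving out 1 sample only when that was melatonin replicate 3, with adjusted p of 0.0590 to 0.151 for the other 5. It was also not called without the trend (adjusted p 0.0824), with a replicate block (0.0524), with voom (0.0576) or when samples were scaled to the same total (0.0604), and was -0.49 with melatonin replicate 1 alone.

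Of 12 lysophospholipid acyltransferases related to Lpcat4, 5 were higher (41.7%) and 2 lower (16.7%), beside 24.5% and 24.7% of all tested genes, with a median of 0.12 that was 0.07 without vehicle replicate 1 or melatonin replicate 2 and up to 0.16 without melatonin replicate 1. Lpcat2, which also makes platelet-activating factor, rose from 279, 281 and 287 to 881, 614 and 536 (log2 fold change 1.22, limma adjusted p 0.000627). Mboat1 rose by 0.90 (adjusted p 0.000112) and Mboat2 by 0.85 (adjusted p 0.00169). The other calls upward were Lpcat1 (0.48) and Lpcat3 (0.24), named after their values were seen. Agpat4 fell by 0.65 (adjusted p 0.000482). Agpat1 fell by 0.57 (adjusted p 0.0181), a call lost without vehicle replicate 1 (-0.54, adjusted p 0.0554) or 3 (-0.51, adjusted p 0.0680), or without the trend (adjusted p 0.0538). In the family of Aldh3a1, Aldh3a2 rose by 0.40 (adjusted p 0.00356), while Aldh3b1 was at -1.79 and not called (adjusted p 0.0913), though called at -2.76 without melatonin replicate 3 and at -1.92 with sample weights (adjusted p 0.0395), and was -2.81 with melatonin replicate 1 alone.

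The genes whose pattern over the 6 samples was most like that of Ahr were Nsmf, Etaa1, Gclc, S100pbp and Tmem181b-ps, with Pearson r of 0.997 to 0.999 on the log2 scale among the 9989 genes whose mean reached 100. Of those genes 994 (9.95%) exceeded an r of 0.95 with Ahr, so a high r over these samples is common. Arnt stood at 0.966 and Tiparp at 0.954. The genes most like Tiparp were Trafd1, Arid4b, Shld2, Ccdc126 and Zmym2, with r of 0.997 to 1.000, and Lpcat4 was close to its mirror image at -0.998. These values describe 6 samples in 2 groups and carry no test.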

How the data were processed

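RNA of sorted aILC2s was sequenced by the authors from 6 samples with a low-input kit that does not mark strand, aligned with STAR to mm39 and counted in Partek Flow. The deposited values are DESeq2 normalised counts, treated here as a signal, since the authors divided estimated counts by a size factor per sample and dropped genes under 10 counts. Genes were named by Ensembl identifier, and coordinates were taken from the GENCODE annotation of GRCm39. Whole reads could not be recovered, as 63.4 to 66.0% of values per sample were whole multiples of 1 read within 0.01. Fits used limma 3.58.1 (R 4.3.3) with its trend on log2(value + 1) for genes reaching 10 in at least 1 sample, with Benjamini-Hochberg adjustment over all genes, two-sided, at 0.05. The method was tested on simulated data. The 95% intervals come from the spread between samples in limma, and the limits of 3 counts cover counting error only.

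The 8 genes, the related lists and the tests were chosen with earlier results of these data known, and 1 gene is not reported here. Named genes were the 8, all tested genes of lists of up to 5, and in longer lists the 3 largest rises and the 3 largest falls among calls whose mean reached 100 and whose groups did not overlap. Nqo1, Il22, Slc7a5, Hif1a, Bmal1, Cyp1a2 and Tph1 were always named, as were the 5 genes most correlated with Ahr and with Tiparp. Alternatives were other pseudocounts, filters, scalings, thresholds, limma settings (voom on estimated counts, sample weights, no trend, a replicate block), lengths, motifs and leaving out each sample. Leaving out melatonin replicates 2 and 3 together was chosen after seeing the data, as were the within-sample ratios.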

Additional observations from a re-analysis of the deposited data

How the results depend on the processing

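Ahr, Arnt, Tiparp, Cyp1a1, Cyp1b1 and Lpcat4 kept their direction and call in all alternatives run for them with at least 2 samples a group, with log2 fold changes of 1.56 to 1.87, 0.45 to 0.56, 0.71 to 0.85, -2.60 to -1.53, -3.11 to -2.43 and -0.79 to -0.67. Ahrr was not called without the trend (-1.26), nor without vehicle replicate 2, melatonin replicate 2 or melatonin replicate 3. Its log2 fold change ranged from -1.73 to -0.93 on leaving out 1 sample, and was -0.31 without melatonin replicates 2 and 3 together. Aldh3a1 was called with sample weights (-0.89) and without melatonin replicate 1 (-0.95). It was 0.51 without melatonin replicates 2 and 3, and ranged from -0.95 to -0.0120 on leaving out 1 sample. Cul4b turned positive when samples were scaled to the same total (0.00916), with voom (0.0109), without melatonin replicates 2 and 3 (0.0651) and on leaving out 1 sample (-0.0847 to 0.0436). At an adjusted p of 0.01, 2188 genes were higher and 2267 lower, of which 21 and 16 were in the related lists, and 17 genes of those lists were lower when only genes whose mean reached 100 were tested. The causes were not tested, apart from the stricter threshold and the smaller number of genes. The median over all genes lay between -0.05 and 0.04 over the scalings. With a replicate block, 3160 genes were higher and 3278 lower, and Ahr (1.74, adjusted p 0.00131) and Ahrr (-1.26, adjusted p 0.0112) were called. Deviations of samples with the same number correlated at -0.054, 0.0064 and -0.048, so no pairing by number was seen. With 3 samples a group, and melatonin replicate 1 apart from the other melatonin samples in sex-linked transcripts, these values cannot decide whether samples were paired. The melatonin levels of Il22, Ugt1a6a, Gsta1, Gpr15, Il17a and Ido1 lie near or under the depth limit, which leaves their fold changes imprecise.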
